A study of Mus musculus with 18 samples.

Results

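A small set of transcripts of the 17-day mouse testis, among them genes of DNA replication, actin binding, basement membrane and RNA processing, had little intensity left on the polysomes and in the free RNPs of the adult testis. The set was chosen by measured values. From the means of 3 arrays a group, it takes the probe sets that name 1 gene, read at least 200 on 17-day polysomes and kept at most 25% of the 17-day mean in adults, in the polysome fraction and in the RNP fraction alike. It holds 33 probe sets of 24 genes, of 20380 named probe sets of 12393 genes on the arrays. At least 200 on 17-day polysomes was reached by 4888 probe sets, of which 40 passed the limit on polysomes and 409 passed it in RNPs. A fall this deep on polysomes was therefore the rarer part of the rule.

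Every sample was testis of the outbred CD1 strain, and the labels name no genetic change or treatment in any group. The ages were 17 days, 22 days and adult, and the adult age in days is not in the labels. Per the labels' protocols, cytoplasmic extract was spun through a sucrose gradient of 10 to 30% and cut into 17 fractions. Fractions 2 to 8 were pooled as RNPs, the slowly sedimenting messenger ribonucleoprotein particles without ribosomes, and fractions 11 to 17 as polysomes, in which messenger RNAs carry ribosomes. There were 3 arrays for each fraction and age and 18 in all, numbered as biological replicates, and whether a replicate is 1 animal or a pool is not stated. The unit is the intensity of an Affymetrix probe set, scaled so that all arrays had the same trimmed mean. Values are therefore shares of what each fraction held, and intensities of different probe sets are not set against each other.

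In the testis, spermatogonia divide at the edge of the seminiferous tubule, copy their DNA a last time before meiosis and give rise to spermatocytes and then spermatids, which store many messenger RNAs in RNPs before translating them. Sertoli cells nurse the germ cells, peritubular muscle-like cells and a basement membrane wrap the tubule, and Leydig cells between the tubules make androgens. As the first wave of spermatids fills the young testis, dividing and supporting cells become a smaller share of the organ. In whole testes, fewer cells of a type and less RNA per cell cannot be told apart.

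Arrays of a group correlated at 0.859 to 0.981 across probe sets. In both fractions replicate 2 at 17 days and replicate 1 of the adults stood apart, and their deviations from the group means correlated at 0.375 on polysomes and 0.408 in RNPs although they are of different ages. Without 17-day replicate 2 and adult replicate 1 of both fractions (4 arrays), the rule gave 37 probe sets. Of these, 21 were among the 33. Late spermatid transcripts checked the ages: all 13 measured ones rose from 17 days to adults in both fractions (limma, adjusted p under 0.05), and their summed intensity on polysomes went from 268.1–269.9 at 17 days through 1299–4048 at 22 days to 43663–47604 in adults. Epididymis markers, a sign of other tissue, summed to 59.9–133.3 on every array and none was bright enough to be tested.

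All 33 probe sets had 3 adult arrays below all 3 arrays at 17 days, on polysomes and in RNPs alike, as did 24.5% and 34.4% of the 14066 tested probe sets. The limma model, which compares group means on the log2(intensity + 15) scale, called all 33 lower on adult polysomes (17.3% of tested probe sets were called lower and 11.9% higher) and 32 lower in adult RNPs (31.8% lower, 14.2% higher). In RNPs that was 4471 lower and 1991 higher over all tested, 3608 and 2552 after quantile normalization, and 3626 and 2495 after median centring. The rule used these arrays, so nothing is read from those counts. In adults the 33 kept 7.86% to 24.99% of the 17-day mean on polysomes (median 20.9%) and 2.10% to 24.4% in RNPs (median 9.62%). The 22-day arrays had no part in the choice, and the tests of RNPs against polysomes were made on them. Those tests are not independent of the rule, which set a floor on polysomes alone.

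At 22 days the set lay on the polysome side. Of the 33 probe sets, 28 were lower in RNPs than on polysomes and 0 were higher (limma, adjusted p under 0.05 over 14066 probe sets), where 23.8% of all tested probe sets were called lower and 13.9% higher. The median difference, RNP minus polysome, was -1.92 on the log2 scale over the set and -0.13 over all tested. Among the 4888 probe sets with at least 200 on 17-day polysomes, 35.1% were called lower in RNPs at 22 days. This model did not pair the polysome and RNP arrays that share a replicate number. With same-numbered arrays of an age paired, more of the set and more of all probe sets were called, as given at the end. In 29 of the 33, all 3 RNP arrays were below all 3 polysome arrays, as in 33.9% of tested probe sets. The rule put a floor under the polysome level at 17 days and none under the RNP level, and 28 of the 33 already had this order at 17 days (28.0% of tested probe sets), so the side at 22 days is in part the side the rule chose. After quantile normalization or centring on the median the count was 25 of 33, with the median of all tested probe sets at 0.05 and 0.08 in place of -0.13. Over all tested probe sets 3352 were lower and 1955 higher, 2562 and 2440 after quantile normalization, and 2409 and 2818 after median centring.

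**Figure D1:**
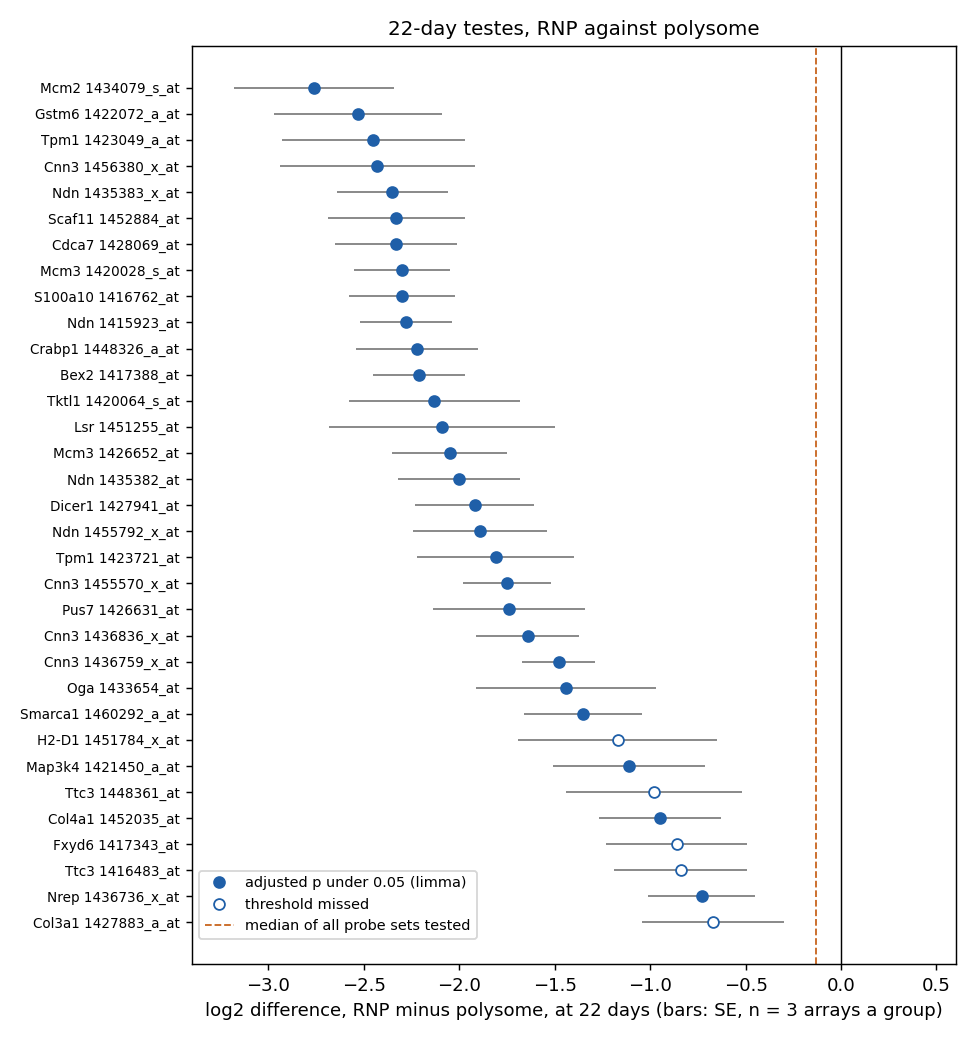
Log2 difference between RNPs and polysomes at 22 days for the 33 probe sets (x axis, limma estimate with its SE, 3 arrays a group), in order of size. Filled points passed an adjusted p of 0.05 (28) and open points did not (5). All 33 estimates lie left of 0, and the dashed line marks the median of all tested probe sets at -0.13.

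Genes of DNA replication and of dividing cells formed the first group. Mcm2 and Mcm3 encode subunits of the helicase that opens DNA at replication origins, and Cdca7 encodes a zinc finger protein that works with the chromatin remodeller HELLS. On polysomes Mcm2 read 754, 653 and 809 at 17 days, 512, 366 and 200 at 22 days and 263, 69.9 and 170 in adults. In RNPs it read 314, 272 and 179 at 17 days, 20.3, 73.1 and 29.6 at 22 days and 68.1, 33.2 and 24.6 in adults. The RNP mean at 22 days was no higher than in adults, with 16.1% of the 17-day mean left, while 48.7% was left on polysomes. The 22-day polysomes exceeded the RNPs by 6.78-fold (log2 -2.76 ± 0.42 SE, adjusted p = 9.17e-05), the largest difference of the set on the log2(intensity + 15) scale, with no overlap of arrays. By the ratio of mean intensities Mcm2 stood at 8.77-fold and 6 other members were higher, Lsr most of all at 13.2-fold. The suffix of this Mcm2 probe set is of the s type, which can match more than 1 transcript. Another Mcm2 probe set, without that suffix, missed both limits on the fall, with 32.9% left on polysomes and 30.2% in RNPs. Its 22-day difference was smaller (log2 -1.91 ± 0.35 SE, adjusted p = 0.000378).

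Mcm3 followed the same course. Its stronger probe set read 639, 586 and 714 on polysomes at 17 days, 376, 404 and 237 at 22 days and 131, 112 and 179 in adults. The RNP arrays gave 150, 151 and 142 at 17 days, 50.1, 61.1 and 54.7 at 22 days and 52.9, 21.8 and 26.8 in adults, so the adult RNP arrays overlapped those at 22 days. The fraction difference at 22 days was 4.93-fold (log2 -2.30 ± 0.25 SE, adjusted p = 4.65e-06), and a second Mcm3 probe set gave 4.14-fold (log2 -2.05 ± 0.30 SE, adjusted p = 5.64e-05). The stronger one is of the s type, and neither stayed a member after quantile normalization or scaling to equal medians. Another tested Mcm3 probe set kept 60.0% on adult polysomes and 67.9% in RNPs, and a further one kept 36.0% and 20.2%. Both missed the rule but were lower in 22-day RNPs (adjusted p = 5.93e-06 and 0.00113). Cdca7 read 223, 288 and 310 on polysomes at 17 days, 117, 184 and 103 at 22 days and 45.2, 74.9 and 69 in adults. In RNPs it went from 78.7, 104 and 73.5 at 17 days through 3.1, 42.5 and 8.7 at 22 days to 4.4, 4.3 and 3.3 in adults, with replicate 2 far above the others at 22 days. It was 5.01-fold higher on polysomes at 22 days (log2 -2.33 ± 0.32 SE, adjusted p = 3.9e-05).

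The wider replication list did not move as one. Of 35 measured genes, 15 fell on polysomes from 17 days to adults and 0 rose, and 16 fell in RNPs and 0 rose (over all tested, 17.3% fell on polysomes and 31.8% in RNPs), with median log2 changes of -0.71 and -0.53 against -0.16 and -0.28 over all tested probe sets. With the median of each array centred, 14 and 13 fell. These counts, and those of the lists that follow, include the members on the list, which were chosen for their falls. The 3 non-members of this list with the highest polysome intensity at 17 days missed the test there. They were Mcm7, another subunit of the same helicase (log2 -0.28 ± 0.16 SE, adjusted p = 0.196), Pcna, the sliding clamp of DNA polymerases (0.11 ± 0.16 SE, adjusted p = 0.653), and Rpa1, which binds single-stranded DNA (0.18 ± 0.21 SE, adjusted p = 0.544). Mcm7 was the exception in its complex. Of the 6 helicase subunits, Mcm2 to Mcm7, 5 fell on polysomes and 6 in RNPs. Mcm2 and Mcm3, chosen for their falls, stood at -2.20 and -2.10 on polysomes, and the non-members Mcm4 (log2 -1.66 ± 0.25 SE, adjusted p = 7.29e-05), Mcm5 (-1.75 ± 0.26 SE, adjusted p = 6.07e-05) and Mcm6 (-1.73 ± 0.38 SE, adjusted p = 0.00249) fell as well. These 3 are named after their values were seen.

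Crabp1, the cytoplasmic retinoic acid-binding protein found in spermatogonia, was the one member on the spermatogonial list. It read 289, 166 and 314 on polysomes at 17 days, 64.5, 136 and 139 at 22 days and 49.5, 32.7 and 60.6 in adults. RNP arrays gave 79.4, 72.7 and 56.9 at 17 days, 3.3, 21.5 and 12.6 at 22 days and 8.4, 10.3 and 1.4 in adults. The 22-day RNP arrays were already below all 17-day ones and mixed with the adult ones, and the transcript was 4.64-fold higher on polysomes (log2 -2.22 ± 0.32 SE, adjusted p = 4.71e-05). Of 15 measured spermatogonial genes, 10 fell on polysomes and 0 rose from 17 days to adults (17.3% and 11.9% of all tested). In RNPs 9 fell and 1 rose (31.8% and 14.2%). Those that fell on polysomes included Dazl, a germ cell RNA-binding protein (log2 -1.05 ± 0.26 SE, adjusted p = 0.00649), Uchl1, a ubiquitin hydrolase (-1.0 ± 0.26 SE, adjusted p = 0.0083), and Stra8, which retinoic acid induces before meiosis (-1.68 ± 0.23 SE, adjusted p = 3.06e-05). The summed list went from 5881–6907 on 17-day polysomes to 2788–3506 on adult ones, and its part in the loss of Crabp1 was not tested.

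**Figure D2:**
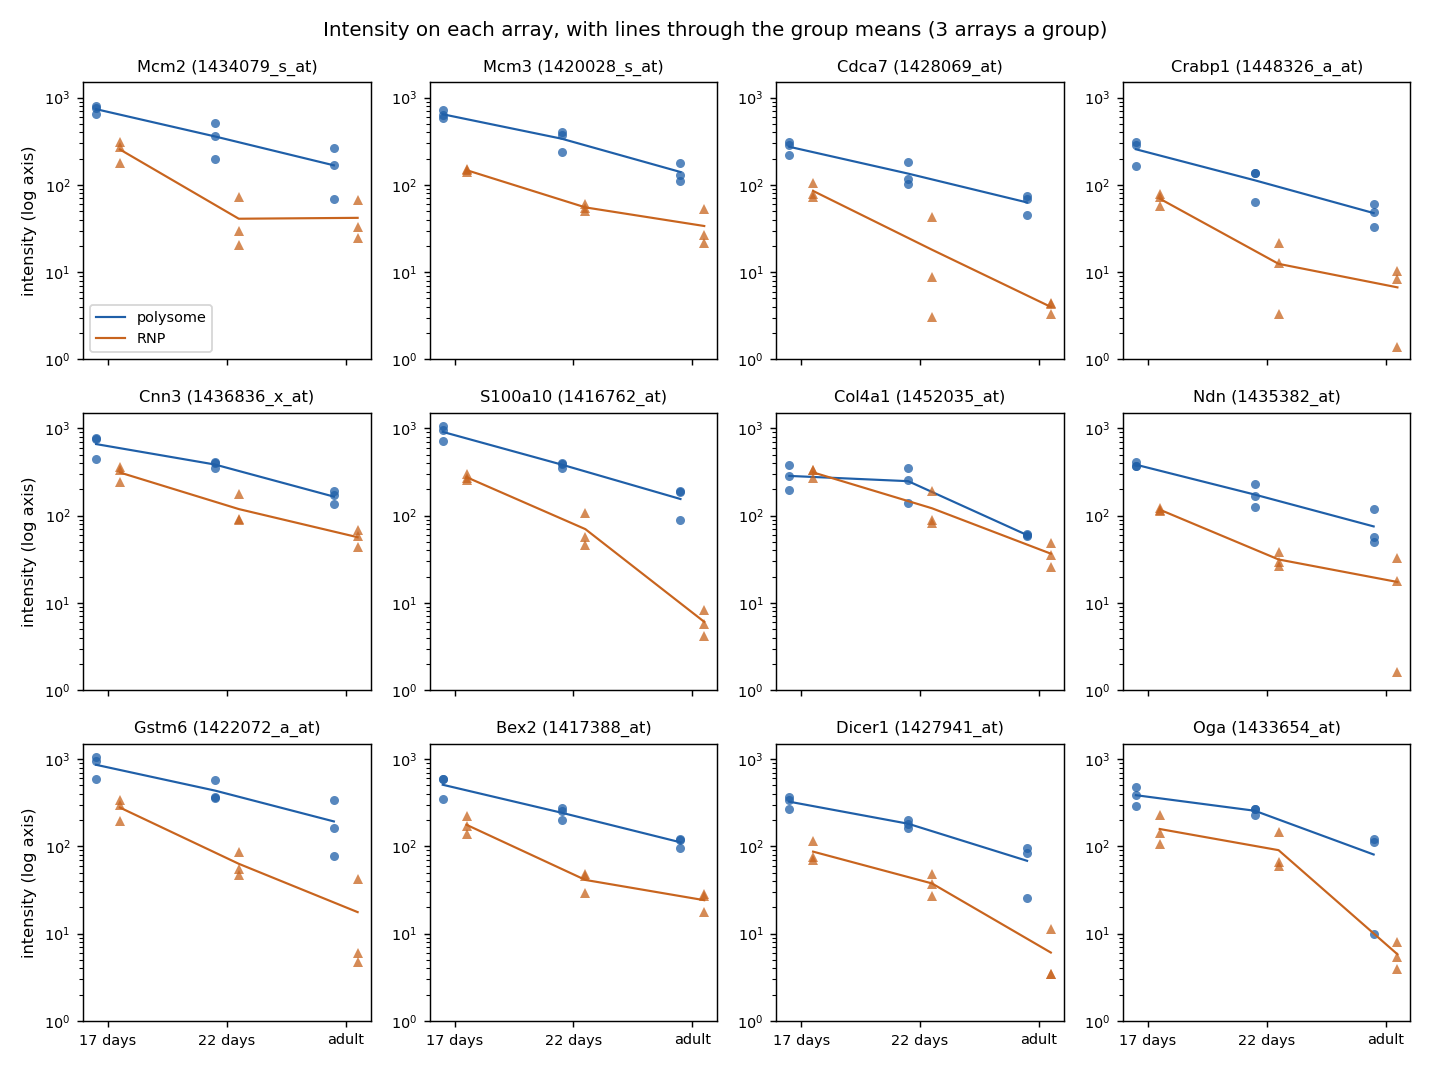
Intensity on each array (log axis) at 17 days, 22 days and in adults for 12 genes, 1 probe set each. Circles are polysome arrays, triangles RNP arrays and lines join the means of 3 arrays. RNP points lie below polysome points at 22 days in all 12 panels but Col4a1, where the fractions overlap.

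The second group binds actin or sits at the cell cortex. Calponin 3 (Cnn3) and tropomyosin (Tpm1) bind actin filaments, and S100a10 pairs with annexin A2 under the membrane. S100a10 read 1063, 715 and 961 on polysomes at 17 days, 396, 405 and 354 at 22 days and 185, 88.5 and 192 in adults. Its RNP arrays read 253, 273 and 302 at 17 days, 56.3, 108 and 46.2 at 22 days and 8.3, 4.2 and 5.7 in adults. No arrays of neighbouring ages overlapped in either fraction. At 22 days S100a10 was 4.92-fold higher on polysomes (log2 -2.30 ± 0.28 SE, adjusted p = 1.1e-05).

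Cnn3 was caught by 4 probe sets, which share a target and are not separate evidence. By their suffix all 4 are of the x type, which can match more than 1 transcript. One of them kept the smallest share on adult polysomes of all 33, 7.86%, with 619, 289 and 608 at 17 days, 330, 246 and 89.1 at 22 days and 17.6, 28.5 and 73.1 in adults. It was the one probe set left when the rule allowed at most 12.5% to be left. The probe set with the highest 17-day polysome mean kept 24.99%, just inside the limit, with 755, 446 and 783 at 17 days, 400, 407 and 349 at 22 days and 135, 171 and 190 in adults. At 22 days all 4 were lower in RNPs, by log2 -1.48 ± 0.19 SE to -2.43 ± 0.51 SE, and all 4 passed the test. The other 2 tested Cnn3 probe sets that missed the rule also had lower adult means in both fractions. One, not of the x type, missed both limits, with 28.1% left on polysomes and 33.9% in RNPs. It was lower in 22-day RNPs (log2 -1.67 ± 0.25 SE, adjusted p = 7.19e-05). The other, of the x type, kept 37.5% on polysomes and 12.5% in RNPs, and missed the test at 22 days (adjusted p = 0.112).

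Tpm1 had 2 probe sets in the set. On polysomes the first read 455, 310 and 391 at 17 days, 370, 289 and 132 at 22 days and 91.5, 37.9 and 90.9 in adults. In RNPs it read 239, 132 and 190 at 17 days, 30.9, 118 and 50.5 at 22 days and 2.9, 3.2 and 19.7 in adults. The polysome arrays of 17 and 22 days overlapped, while the RNP arrays did not. At 22 days it was 3.5-fold higher on polysomes (log2 -1.81 ± 0.41 SE, adjusted p = 0.00219), and the second probe set 5.48-fold (log2 -2.45 ± 0.48 SE, adjusted p = 0.00066). On the list of peritubular and smooth muscle genes, 5 of 9 fell on polysomes and 1 rose (17.3% and 11.9% of all tested). In RNPs 5 fell and 1 rose (31.8% and 14.2%). Acta2, smooth muscle actin, fell on polysomes (log2 -1.29 ± 0.36 SE, adjusted p = 0.0115), as did Myl9, a myosin light chain (-1.26 ± 0.34 SE, adjusted p = 0.00971) and Tpm2, another tropomyosin (-1.55 ± 0.34 SE, adjusted p = 0.00259). In RNPs Acta2 (-1.27, adjusted p = 0.00746) and Myl9 (-3.05, adjusted p = 1.22e-06) fell and Tpm2 missed the test (-0.72, adjusted p = 0.0955). Actg2, another smooth muscle actin, named after its values were seen, rose on polysomes (log2 2.93 ± 0.34 SE, adjusted p = 3.73e-06) and in RNPs (4.15, adjusted p = 3.39e-08). Mylk missed the test on polysomes (adjusted p = 0.116) but fell in RNPs (log2 -1.95, adjusted p = 2.09e-05). The summed list went from 5635–6721 on 17-day polysomes to 2190–4307 on adult ones, and its part in the loss of Tpm1 was not tested.

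Beta-actin (Actb) read 4704 ± 362 on 17-day polysomes and 5714 ± 609 on adult ones (SD, n = 3), a log2 difference of 0.28 ± 0.13 SE that missed the threshold (adjusted p = 0.121). In RNPs it was called higher in adults (log2 0.65 ± 0.13 SE, adjusted p = 0.000664). S100a10 belongs to the list of somatic actin, tubulin and partners. Of its 17 measured genes, 7 fell and 2 rose on polysomes (17.3% and 11.9% of all tested). In RNPs 10 fell and 3 rose (31.8% and 14.2%). One of the risers on polysomes was Tmsb10, a thymosin that binds actin monomers (log2 0.47 ± 0.13 SE, adjusted p = 0.0115).

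The upstream sequences of 4 of these genes are shown as examples of how the starts of members from the cell division and actin groups differ in the searched letters, and they were picked after the matches were known. The windows are from RefSeq on build GRCm38.p6, 200 bases up to the start of the gene, 5′ to 3′ on the gene's own strand. They overlap no other gene of that annotation. Capitals mark CCAAT (the CCAAT box), GGGCGG (the GC box) and TTTGAA (an element of cell cycle promoters), each in either orientation. Mcm2 lies at chr6:88898781-88898980 (minus strand), Mcm3 at chr1:20820313-20820512 (minus strand), Cnn3 at chr3:121426341-121426540 (plus strand) and Crabp1 at chr9:54764548-54764747 (plus strand).
Mcm2 promoter: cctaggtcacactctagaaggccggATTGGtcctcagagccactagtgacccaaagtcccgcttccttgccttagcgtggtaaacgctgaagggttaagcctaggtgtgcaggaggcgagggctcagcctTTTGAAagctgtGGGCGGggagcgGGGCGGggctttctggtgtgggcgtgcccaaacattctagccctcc
Mcm3 promoter: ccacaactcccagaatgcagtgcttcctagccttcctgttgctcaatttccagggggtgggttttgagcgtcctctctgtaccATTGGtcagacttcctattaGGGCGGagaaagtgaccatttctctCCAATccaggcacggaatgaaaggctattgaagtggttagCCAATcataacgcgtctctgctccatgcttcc
Cnn3 promoter: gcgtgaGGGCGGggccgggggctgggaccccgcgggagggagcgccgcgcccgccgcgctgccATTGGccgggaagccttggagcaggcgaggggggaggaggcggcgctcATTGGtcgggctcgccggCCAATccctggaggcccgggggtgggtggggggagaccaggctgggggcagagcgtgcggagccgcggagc
Crabp1 promoter: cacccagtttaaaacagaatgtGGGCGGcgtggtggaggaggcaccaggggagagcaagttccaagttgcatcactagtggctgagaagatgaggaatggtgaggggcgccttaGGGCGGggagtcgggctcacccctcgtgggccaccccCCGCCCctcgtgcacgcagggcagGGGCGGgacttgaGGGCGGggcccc

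The 4 stretches differ in their letters. Mcm3 and Cnn3 each hold 3 CCAAT boxes and 1 GC box in these 200 bases, Mcm2 holds 1 CCAAT box, 2 GC boxes and 1 TTTGAA, and Crabp1 holds 5 GC boxes and no CCAAT box. Over the full windows (250 bases before to 50 after the start), which the table held for 22 of the 24 genes in 25 windows, CCAAT was found in 56.0%, against 38.4% of 3926 windows of genes with at least 200 on 17-day polysomes and 37.4% of all 32851. GGGCGG was found in 76.0%, 66.9% and 35.7%, and TATAAA in 12%, 6.8% and 13.6%. The E2F letters TTTCCCGC were found in windows of Cdca7 and Mcm3 (8.0% of member windows, 2.47% and 1.07%) and TTTGGCGC in one of Mcm3 (4.0%, 1.07% and 0.514%), in Mcm3 outside the stretch shown. TTTGAA was found in 16.0%, 11.5% and 17.9%, and AGATAA, the GATA site, in 8.0%, 5.78% and 11.2%. TGACGTCA, the cAMP response element (3.41% and 1.79% of the other windows), and AAGGTCA, the site of steroidogenic factors (2.73% and 4.72%), were in no member window. Both strands were searched, no base of the stretches shown belongs to more than 1 match, and a match is a description of the letters only.

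Col4a1 and Col3a1, genes of the extracellular matrix, were the 2 probe sets of the 33 whose mean at 17 days was higher in RNPs than on polysomes. Col4a1 encodes a chain of the basement membrane collagen and Col3a1 a fibrillar collagen chain. Col4a1 read 281, 376 and 199 on polysomes at 17 days, 256, 351 and 139 at 22 days and 62, 58.3 and 59.5 in adults. In RNPs it read 334, 333 and 273 at 17 days, 90.2, 193 and 81.5 at 22 days and 49.2, 25.6 and 35.2 in adults. Polysome arrays of 17 and 22 days overlapped and 87% of the mean was left at 22 days, the highest share of the set, while only 38.8% was left in RNPs. The fraction difference at 22 days was 1.93-fold (log2 -0.95 ± 0.32 SE, adjusted p = 0.0257) with overlapping arrays, and it missed the threshold when polysome replicate 1 or 2 or RNP replicate 1 or 3 was left out (adjusted p = 0.0788 to 0.146), after quantile normalization (0.076) and after median centring (0.0632).

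Col3a1 read 187, 329 and 134 on polysomes at 17 days, 167, 180 and 73.9 at 22 days and 32.9, 21.3 and 72.9 in adults. In RNPs it read 395, 277 and 210 at 17 days, 90.5, 100 and 49.6 at 22 days and 34.4, 26.8 and 23.6 in adults. The adult arrays of both fractions were below all 22-day arrays. Its 22-day difference did not pass (log2 -0.67 ± 0.37 SE, adjusted p = 0.169) but passed without polysome replicate 3 (adjusted p = 0.0451). Of 25 measured genes of matrix and basement membrane, 10 fell on polysomes and 0 rose (17.3% and 11.9% of all tested). In RNPs 13 fell and 2 rose (31.8% and 14.2%). After quantile normalization, however, 6 fell on polysomes. Sparc, a secreted matrix protein, was among those that missed the test on polysomes (log2 -0.35 ± 0.84 SE, adjusted p = 0.79). It fell in RNPs (log2 -2.47 ± 0.84 SE, adjusted p = 0.0227).

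Necdin (Ndn), a growth-restraining MAGE family protein made from the paternal allele, had 4 probe sets in the set. The first read 367, 416 and 369 on polysomes at 17 days, 170, 228 and 125 at 22 days and 120, 56.7 and 49.5 in adults. Its RNP arrays gave 116, 121 and 114 at 17 days, 26.3, 38.5 and 29.6 at 22 days and 32.9, 1.6 and 17.6 in adults. All 3 ages were separate on polysomes, and in RNPs the adult arrays reached into those of 22 days. The 4 probe sets were lower in RNPs at 22 days by log2 -1.89 ± 0.35 SE to -2.35 ± 0.29 SE, and all passed. Another tested Ndn probe set missed both limits, with 30.9% left on adult polysomes and 52.6% in RNPs. Of 15 measured imprinted growth genes, 4 fell on polysomes and 1 rose (17.3% and 11.9% of all tested). In RNPs 7 fell and 1 rose (31.8% and 14.2%). Peg3, a zinc finger protein also made from the paternal allele, fell by 1.56 ± 0.29 SE on the log2 scale (adjusted p = 0.000609), and Gnas, a G protein subunit, missed the test there (log2 -0.57 ± 0.26 SE, adjusted p = 0.11) but fell in RNPs (log2 -2.21, adjusted p = 2.9e-06).

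Bex2, from a family of small brain-expressed proteins encoded on the X chromosome, read 595, 345 and 585 on polysomes at 17 days, 201, 255 and 273 at 22 days and 121, 94.7 and 119 in adults. RNP arrays read 173, 137 and 220 at 17 days, 29.1, 48.6 and 46 at 22 days and 26.7, 28.1 and 17.7 in adults. Polysome arrays were separate at every age, and the fractions differed 4.61-fold at 22 days (log2 -2.21 ± 0.24 SE, adjusted p = 5.33e-06). Nrep, a small protein of regenerating neurons and fibroblasts, read 278, 212 and 269 in RNPs and 284, 168 and 312 on polysomes at 17 days, with overlapping arrays. At 22 days it read 65, 91.7 and 51.8 in RNPs and 154, 103 and 114 on polysomes, and in adults 8.1, 28.2 and 22.7 in RNPs and 44.8, 27.8 and 50.1 on polysomes. Its 22-day difference just passed (log2 -0.73 ± 0.28 SE, adjusted p = 0.0481) and missed the threshold after quantile normalization (adjusted p = 0.239) or median centring (0.16), and without any of the 22-day arrays but RNP replicate 2 (0.0572 to 0.186).

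Ttc3, a ubiquitin ligase that acts on the kinase Akt, had the highest RNP share of the set left at 22 days. On polysomes it read 512, 378 and 477 at 17 days, 267, 471 and 238 at 22 days and 57.3, 155 and 119 in adults, so 71.4% was left at 22 days. In RNPs it read 388, 147 and 339 at 17 days, 156, 221 and 134 at 22 days and 29.7, 44 and 30.5 in adults, with 58.5% left at 22 days. The fraction difference did not pass for either of its probe sets (log2 -0.84 ± 0.35 SE, adjusted p = 0.0682 for the first, adjusted p = 0.103 for the second). With same-numbered arrays of an age paired both passed (adjusted p = 0.00467 and 0.0126), and the first also without RNP replicate 2 (0.0498).

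Regulators of RNA, chromatin and protein sugars made up the next group. Dicer1 encodes the nuclease that cuts microRNA precursors, Pus7 a pseudouridine synthase of RNA, Scaf11 a splicing factor of the SR-related kind, Smarca1 the motor of an ISWI chromatin remodeller, and Oga the enzyme that removes N-acetylglucosamine from nuclear and cytoplasmic proteins. Dicer1 read 363, 269 and 343 on polysomes at 17 days, 162, 201 and 182 at 22 days and 25.3, 94.7 and 84.9 in adults. Its RNP arrays gave 116, 75.1 and 70.2 at 17 days, 37.5, 48.4 and 26.9 at 22 days and 3.4, 3.4 and 11.4 in adults. Every age was separate from the next in both fractions. The 22-day difference was 3.78-fold (log2 -1.92 ± 0.31 SE, adjusted p = 0.000139).

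Pus7 read 367, 194 and 291 on 17-day polysomes and 15.7, 54.2 and 103 on adult ones, with 203, 206 and 87.6 at 22 days, of which replicates 1 and 2 were above the lowest 17-day array. At 22 days it was 3.34-fold higher on polysomes (log2 -1.74 ± 0.40 SE, adjusted p = 0.00254). Scaf11 read 203, 201 and 214 at 17 days, 118, 117 and 81.3 at 22 days and 10.3, 54 and 69.1 in adults on polysomes and 2.2, 23.7 and 5.1 in 22-day RNPs (log2 -2.33 ± 0.36 SE, adjusted p = 9.82e-05). This probe set kept 21.6% on adult polysomes and 5.07% in RNPs. Another, reading 400 on 17-day polysomes, kept 31.7% and 57.3%. The remaining tested Scaf11 probe sets kept 48.95% and 48.56% on polysomes and 66.55% and 71.53% in RNPs. Smarca1 read 180, 256 and 222 at 17 days, 118, 135 and 77.8 at 22 days and 39.5, 34.5 and 76.9 in adults on polysomes and 22.6, 63.9 and 23.1 in 22-day RNPs (log2 -1.35 ± 0.31 SE, adjusted p = 0.00229). In each of these 3 genes every 22-day RNP array was below every polysome array.

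Oga read 384, 289 and 485 on polysomes at 17 days, 228, 270 and 271 at 22 days and 9.9, 121 and 111 in adults, where replicate 1 was far below the other arrays. Its RNP arrays had 226, 108 and 141 at 17 days, 60, 144 and 67 at 22 days and 3.9, 8.1 and 5.4 in adults, so 57.2% was left at 22 days and 3.67% in adults. At 22 days it was 2.72-fold higher on polysomes (log2 -1.44 ± 0.47 SE, adjusted p = 0.0204), which was lost without polysome replicate 2, RNP replicate 1 or RNP replicate 3 (adjusted p = 0.0572 to 0.0888). The other 4 Oga probe sets differed in direction. One read 517 on 17-day polysomes and 636 on adult ones, and 200.1 and 294 in RNPs. Of the others, one went from 172 to 94.2 on polysomes, one from 285 to 101.1, and one that was too dim to be tested from 28.8 to 14.2.

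**Figure D3:**
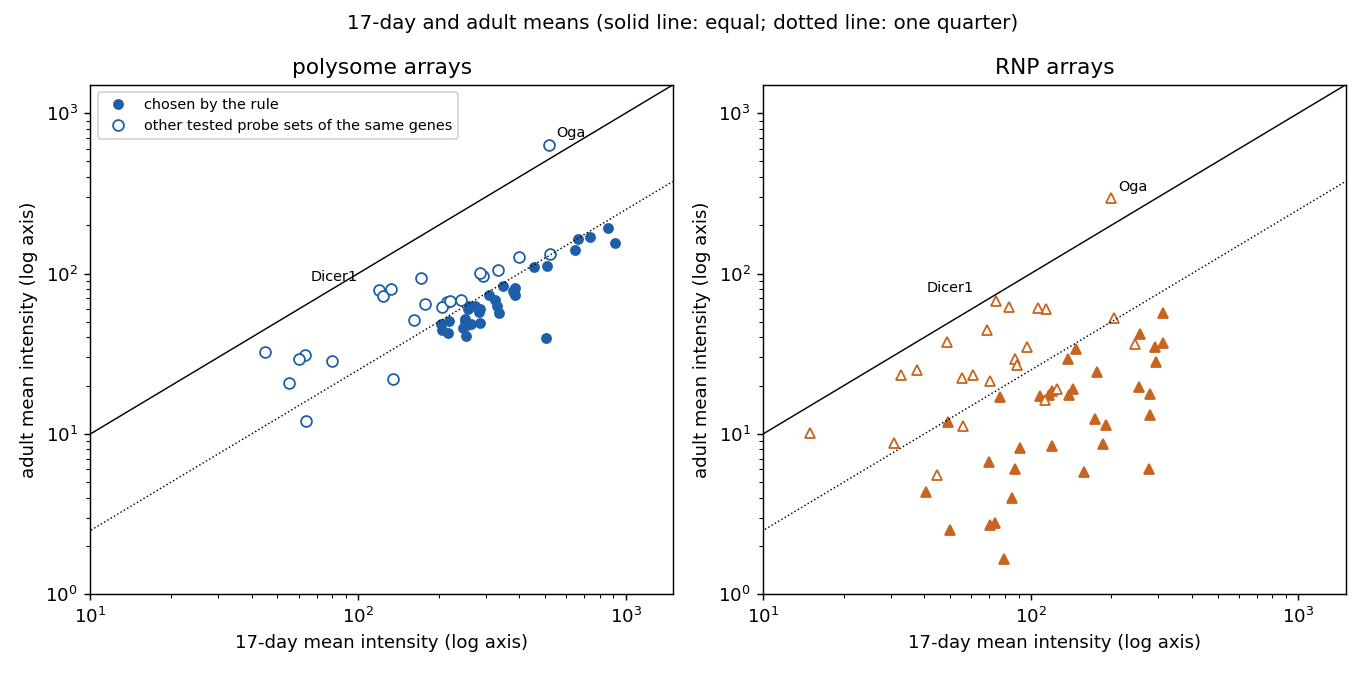
Mean intensity at 17 days (x axis, log) and in adults (y axis, log) on polysomes and in RNPs. Filled symbols are the 33 chosen probe sets and open symbols the 23 other tested probe sets of the same genes. Of the open symbols, 1 of Oga alone lies above the line of equal means.

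That probe set was the exception among the tested other probe sets of the 24 genes. There were 36 others, for 16 genes, of which 30 had lower adult means in both fractions. Of the 36, 23 were bright enough to be tested, and 22 of these had lower adult means in both fractions. No share over all tested probe sets was taken for these counts, so nothing is read from them. The median log2 change over all tested was itself a fall, -0.16 on polysomes and -0.28 in RNPs. All 36 missed a limit on the fall, 33 the one on polysomes and 29 the one in RNPs, and 26 were also under 200 on 17-day polysomes. A second probe set of Dicer1 read 73.9 at 17 days and 67.3 in adults in RNPs, and 120 and 79.2 on polysomes. At 22 days 12 of the 23 were called lower in RNPs and 0 higher, where 23.8% of all tested probe sets were called lower and 13.9% higher. Suffixes of the 33 chosen probe sets show that 8 are of the x type and 3 of the s type, which can match more than 1 transcript.

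Metabolic and signalling members came next. Gstm6, a glutathione transferase of the mu class, read 942, 586 and 1054 on polysomes at 17 days, 362, 577 and 369 at 22 days and 162, 77.6 and 340 in adults. Its RNP arrays read 338, 197 and 301 at 17 days, 54.6, 87.3 and 47.5 at 22 days and 4.7, 6 and 42.2 in adults. All ages were separate in both fractions, and the 22-day difference was 5.77-fold (log2 -2.53 ± 0.44 SE, adjusted p = 0.000255). Mu class genes are near copies of each other, so the probe set may also read a sister gene. The other mu class genes on the list differed. On polysomes Gstm5 rose (log2 1.42 ± 0.16 SE, adjusted p = 1.99e-06), Gstm1 (0.35 ± 0.21 SE, adjusted p = 0.209) and Gstm2 (-0.44 ± 0.36 SE, adjusted p = 0.378) missed the test, and Gstm7, named after its values were seen, fell (-0.76 ± 0.24 SE, adjusted p = 0.0225). In RNPs Gstm5 rose too (log2 0.84, adjusted p = 0.000341), while Gstm1 (-1.05, adjusted p = 0.000518), Gstm2 (-1.57, adjusted p = 0.00168) and Gstm7 (-1.90, adjusted p = 4.89e-06) fell. Of the 24 measured genes of glutathione and detoxification, 5 fell and 5 rose on polysomes (17.3% and 11.9% of all tested). In RNPs 12 fell and 3 rose (31.8% and 14.2%).

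Tktl1, a relative of the pentose phosphate enzyme transketolase, read 244, 189 and 317 on polysomes at 17 days, 144, 119 and 113 at 22 days and 3.1, 73.4 and 75 in adults. Its RNP arrays had 95.5, 45 and 70.5 at 17 days, 5.6, 31.8 and 19 at 22 days and 3.4, 2.1 and 2.6 in adults. Its adult polysome replicate 1 was near the RNP level while the other adult arrays were not. The 22-day difference was 4.37-fold (log2 -2.13 ± 0.45 SE, adjusted p = 0.00134). Another tested Tktl1 probe set kept 30.35% on adult polysomes and 64.7% in RNPs, against 20.2% and 3.84% for the one chosen. Map3k4, a kinase at the head of stress-activated MAP kinase cascades that is needed for testis formation in the mouse, read 285, 354 and 366 at 17 days, 183, 207 and 126 at 22 days and 17.1, 67.8 and 85.1 in adults on polysomes. Its RNP arrays read 147, 155 and 131 at 17 days, 26.7, 109 and 104 at 22 days and 12.1, 12.6 and 32.1 in adults. At 22 days it was 2.16-fold higher on polysomes (log2 -1.11 ± 0.40 SE, adjusted p = 0.0367). That call was lost after quantile normalization (adjusted p = 0.11) or median centring (0.0874), and without polysome replicate 1 (0.0956), polysome replicate 2 (0.121) or RNP replicate 1 (0.253). Another tested Map3k4 probe set kept 58.0% on adult polysomes and 40.5% in RNPs. With Bex2 and Smarca1, Tktl1 is one of 3 members on the X chromosome among the 22 genes with a RefSeq window (13.6%), against 75 of 3079 genes with at least 200 on 17-day polysomes (2.44%). These shares are a description, with no test.

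Membrane proteins spread widely between arrays. H2-D1, a heavy chain of MHC class I from a family of near-identical genes, read 341, 432 and 275 at 17 days, 131, 345 and 98 at 22 days and 48.2, 37.7 and 164 in adults on polysomes. Its RNP arrays read 181, 131 and 103 at 17 days, 46.5, 82.2 and 71.3 at 22 days and 13.9, 3.1 and 71.2 in adults. Adult replicate 3 was the highest in both fractions. The 22-day difference did not pass (log2 -1.17 ± 0.52 SE, adjusted p = 0.0804). It passed with same-numbered arrays of an age paired (adjusted p = 0.00129) or without polysome replicate 3 (0.0451). Lsr, a lipoprotein receptor that also sits at tricellular junctions, spread more widely, with 185, 422 and 168 on polysomes at 17 days, 125, 256 and 17.2 at 22 days and 75.1, 91.3 and 14.3 in adults. Its RNP arrays gave 87.9, 105 and 37.8 at 17 days, 11.2, 8.2 and 10.8 at 22 days and 12.4, 18.3 and 20.1 in adults. It was 4.27-fold higher on polysomes at 22 days (log2 -2.09 ± 0.59 SE, adjusted p = 0.00914), a call that was lost without polysome replicate 2 (adjusted p = 0.07).

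Fxyd6, a regulator of the sodium pump, read 276, 422 and 229 on polysomes at 17 days and 268, 311 and 258 in RNPs, so the fractions overlapped. At 22 days the values were 133, 239 and 59.4 on polysomes and 47.8, 109 and 45 in RNPs, and in adults 98.7, 63.8 and 59.4 on polysomes and 13.5, 5.5 and 20.1 in RNPs. The 22-day difference of Fxyd6 did not pass (log2 -0.86 ± 0.37 SE, adjusted p = 0.0755). It passed with same-numbered arrays paired (adjusted p = 0.00569), without polysome replicate 3 (0.00762) and without RNP replicate 2 (0.0226). Together with Ttc3, H2-D1 and Col3a1, Fxyd6 makes up the 4 genes, with 5 probe sets, that missed the unpaired test at 22 days. In the other 20 genes every member probe set passed it. With same-numbered arrays paired, Ttc3, H2-D1 and Fxyd6 passed and Col3a1 did not.

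By 22 days less of the 17-day level was left in RNPs than on polysomes. At that age the 33 probe sets had a median of 51.1% of the 17-day mean left on polysomes (42.2% to 87.0%) and 27.5% in RNPs (13.1% to 58.5%), against 95.3% and 91.0% over all tested probe sets. The share left was smaller in RNPs than on polysomes for 32 of the 33, the exception being Map3k4 with 55.4% in RNPs and 51.3% on polysomes. Among the 4888 probe sets with at least 200 on 17-day polysomes the RNP share was the smaller for 68.8%. The 17-day arrays chose the members, so these shares are descriptions with no test. On polysomes the 22-day mean lay between the other ages for all 33 and in RNPs for 31, Mcm2 and Lsr being below the adult mean. The log2 fall from 17 to 22 days was larger than that from 22 days to adults for 24 of 33 in RNPs and for 6 of 33 on polysomes with 15 added to each value. By ratios of mean intensities, with nothing added, it was larger for 19 and for 1. The rule fixed a high 17-day and a low adult mean, which favours a 22-day mean between them. These counts were not set against other probe sets, and nothing is read from them.

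**Figure D4:**
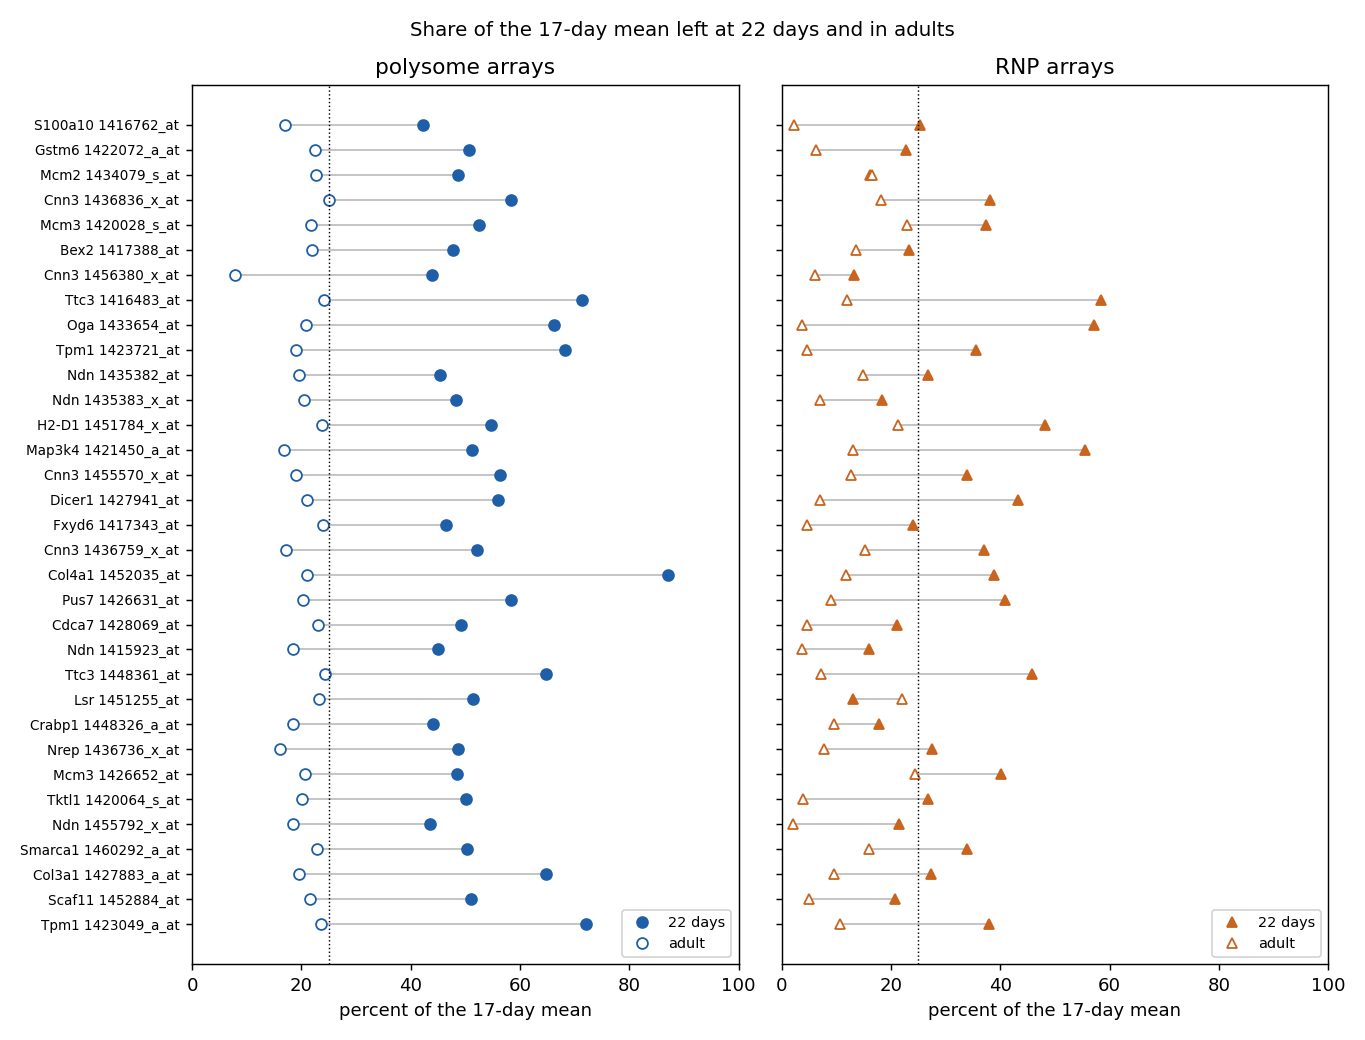
Percent of the 17-day mean left at 22 days (filled) and in adults (open) for each of the 33 probe sets, on polysomes (left) and in RNPs (right). The dotted line is the limit of 25%. At 22 days polysome shares run from 42.2% to 87.0% and RNP shares from 13.1% to 58.5%.

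Counts of non-overlapping arrays between ages use the 17-day and adult arrays that chose the members, so the shares of all tested probe sets beside them are given and nothing is read from the difference. The 22-day arrays were all below the 17-day arrays for 22 of 33 on polysomes (14.1% of tested probe sets) and for 30 of 33 in RNPs (25.7%). The adult arrays were all below the 22-day arrays for 26 of 33 on polysomes (14.8%) and for 20 of 33 in RNPs (20.4%). Adult RNP arrays were all below adult polysome arrays for 25 of 33 (25.3%). The median difference between RNPs and polysomes was -1.48 at 17 days, -1.92 at 22 days and -1.53 in adults on the log2 scale, against -0.09, -0.13 and -0.17 over all tested probe sets. Low values bound these differences: the 22-day RNP mean was under 51.6, the median intensity of all values, for 19 of 33 and the adult RNP mean for 32, while the adult polysome mean was under it for 11, so most of the set could still be measured on adult polysomes.

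At 22 days many members deviated the same way on 2 arrays. There RNP replicate 2 was the highest of its group for 30 of 33 and polysome replicate 3 the lowest for 26 of 33, where 44.6% and 39.4% of all tested probe sets had that order. On 17-day polysomes replicate 2 was the lowest for 20 (44.1% of all tested), including S100a10, Gstm6, Cnn3, Bex2, Crabp1 and Nrep, and the highest for 9 (38.5% of all tested), including Fxyd6, Lsr, Col4a1, Col3a1 and H2-D1. Adult polysome replicate 1 had no common direction in the set, being the lowest for 13 (36.3% of all tested), among them Oga, Tktl1, Map3k4, Dicer1, Pus7, Scaf11 and Ttc3, and the highest for 10 (43.9% of all tested), among them Mcm2, all 4 Ndn probe sets and Fxyd6. Without that array the rule still gave 33 probe sets, but 12 of the first 33, of 11 genes, were not among them.

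**Figure D5:**
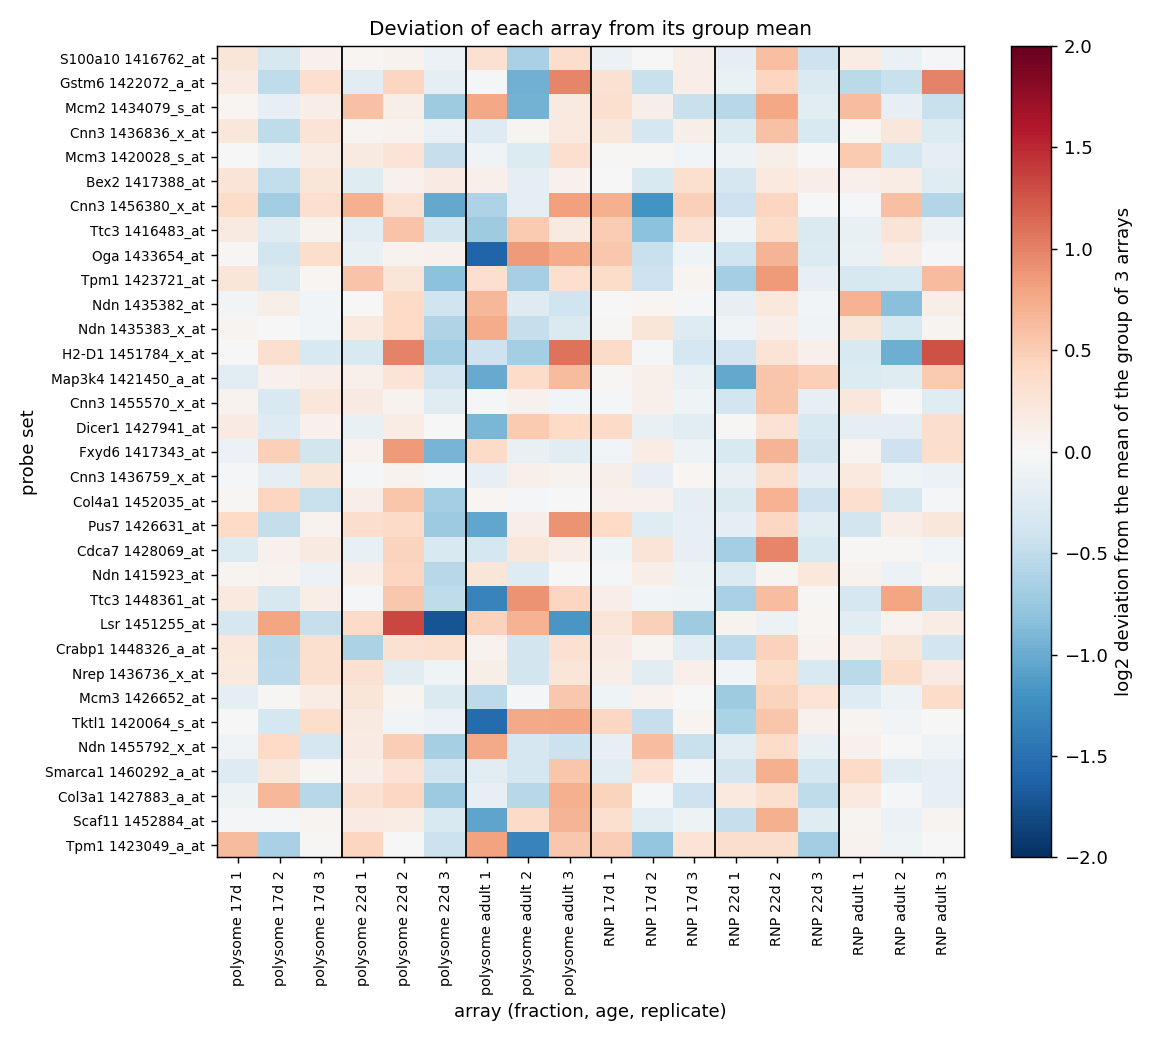
Log2 deviation of each array (columns) from the mean of its group of 3 arrays for the 33 probe sets (rows), red above and blue below. RNP replicate 2 at 22 days is above its group for most rows, polysome replicate 3 at 22 days below, and adult polysome replicate 1 is blue for Oga, Tktl1, Map3k4, Dicer1, Pus7 and Scaf11 and red for Mcm2 and Ndn.

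Somatic and germ cell markers changed over the same ages. Of 21 measured Sertoli cell genes, 8 fell on polysomes and 0 rose, and 12 fell in RNPs and 1 rose, where 17.3% and 31.8% of all tested probe sets fell. Clu, a secreted chaperone of Sertoli cells, missed the test on polysomes (log2 -0.19 ± 0.59 SE, adjusted p = 0.839). At 22 days 17 of the 21 were lower in RNPs and 0 higher (23.8% of all tested were lower). Their summed intensity was 13123–17696 on polysomes at 17 days, 8086–16214 at 22 days and 7435–12560 in adults, and 5624–6250, 1927–3054 and 1192–3034 in RNPs. Of 11 Leydig cell genes 0 fell and 6 rose on polysomes (median log2 change 1.0), and 2 fell and 1 rose in RNPs (median -0.05). Blood, vessel and macrophage genes gave 0 falls and 1 rise on polysomes among 12, and 1 fall and 1 rise in RNPs. No list probe set had a value of 0 on any array. The part of these cell types in the loss of the 33 probe sets was not tested.

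Probe sets lay close to each limit of the rule on both sides. The probe sets just above the level limit were a Tpm1 probe set (204.9) and Scaf11 (206.1), and just below it, with both falls, lay Celf2 (191.6) and Itsn1 (187.2). Just inside the polysome limit were a Cnn3 probe set with 24.99% and a Ttc3 probe set with 24.41% left in adults, and just outside Csrp1 with 25.02% and Ncl with 25.14%. In RNPs both Mcm3 probe sets were the last inside, with 24.35% and 22.88%, and Drd4 with 27.73% and Tnni3 with 29.35% the first outside. Over the 12 settings that leave out 1 of the 17-day or adult arrays, 14 probe sets of 9 genes stayed members throughout: those of Ndn, 3 of Cnn3, and those of S100a10, Bex2, Map3k4, Tpm1 (1 of 2), Nrep, Crabp1 and Col4a1. H2-D1 stayed in 6 of the 12.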

How the data were processed

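Linear intensities, 1 for each probe set on each array, are what the authors deposited, made with MAS5 per the submitters' processing notes, with version and scaling target not given in the sources used here. For each array the mean, trimmed by 2% at each end, was 150.04 to 150.07. Names came from the platform annotation. Values were analysed as log2(intensity + 15), where 15 is close to the 25th percentile of all values, so folds understate changes of dim probe sets. The tests took the 14066 probe sets above 51.6, the 50th percentile, on at least 3 of 18 arrays. All arrays entered 1 limma model (3.58.1, R 4.3.3) of 6 groups with a variance trend, two-sided, with Benjamini-Hochberg adjustment over all tested probe sets at 0.05, tested on simulated data. Every adjusted p is limma's. Precision is limited by the number of arrays. The p-values measure the spread between arrays numbered as biological replicates. That spread may be partly technical, and whether each replicate is 1 animal or a pool is not stated.

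Members and gene lists were chosen with earlier results of these data known. Named were members by level, fall, share left, fraction difference and list, which came to all 24 genes, and up to 3 other genes a list by 17-day polysome intensity. A list gene was represented by its probe set of highest mean. Lists without members beyond those in the report (meiosis, mitotic cell cycle, growth factor and TGF-beta signalling, glycolysis, immediate early genes) gave 4, 8, 3, 8, 3 and 4 falls and 2, 3, 1, 2, 4 and 2 rises on polysomes among 21, 26, 11, 28, 11 and 16 genes. The shares over all tested probe sets there were 17.3% falls and 11.9% rises. Same-numbered arrays of the fractions of an age deviated together (correlation 0.197 to 0.585 in 9 pairs). Differently numbered arrays of an age were not compared. The 17-day replicate 2 and adult replicate 1, which are of different ages, reached 0.375 on polysomes and 0.408 in RNPs. Pairing of fractions by number is therefore an assumption. The main model left this pairing out. Across ages, 17 days to adults, the correlation of same-numbered arrays was -0.293 to 0.248, and the numbers were not taken to pair arrays.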

Additional observations from a re-analysis of the deposited data

How the results depend on the processing

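Leaving out 1 of the 17-day or adult arrays gave 30 to 47 members, and medians of 3 arrays gave 47, of which 26 were among the 33. Other scalings gave 30 (quantile, 24 shared) and 22 (equal medians, 22 shared). A limit of 33.3% in place of 25% gave 100 members and 12.5% gave 1; a floor of 100 on 17-day polysomes gave 53 and one of 400 gave 8. The number of members called at 22 days was 23 to 30 when 1 array was left out and 30 without 17-day replicate 2 and adult replicate 1. It was 32 with same-numbered polysome and RNP arrays of an age paired. In each of these settings 0 were higher. The pairing called 7371 probe sets in all against 5307. Of 528 single values (33 probe sets, 16 alternatives), 484 kept their call, 30 lost it, 14 gained it and 0 changed sign, and 23 probe sets kept it throughout. The probe sets called between 17 days and adults were 4107 on polysomes and 6462 in RNPs. On polysomes they were 2661 to 3794 with 1 array left out, lowest without 17-day replicate 3, and 2694 without replicate 1. In RNPs they were 4127 with the filter at the 75th percentile, which tests fewer probe sets. For these age comparisons the block was the replicate number across all groups, and it gave 4348 and 6708. Dim RNP values, 19 of 33 means under 51.6 at 22 days, limit the size of the fraction differences.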
